A study of Mus musculus with 15 samples.

Results

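Left hemibrain RNA of mice raised on an n-3 enriched diet was compared with that of mice on a standard diet over all genes measured. The 5 arrays of the enriched diet (ERD, n-3 to n-6 fatty acids 7 to 1) and the 5 of the standard diet (STD, 1 to 6) are 10 of the 15 arrays of the series. Membership came from the diet given for each sample, without use of any measured value. The other 5 arrays belong to a balanced diet (BLD, 1 to 1) and are not compared here. They entered the estimate of the spread, the filters, the choice of probes and the classes of genes, all taken over 15 arrays. All animals were male C57BL/6j mice that received their diet for 24 weeks from 3 weeks of age, and the diets had equal caloric content. Each array carried 1 hemibrain sample in Cy5 and a common reference in Cy3, a pool of RNA from 11 mouse cell lines, so every value below is a log2 ratio of hemibrain to reference. A change is the mean of the ERD arrays minus that of the STD arrays on this scale. The sample titles give each sample a number of its own and carry the word CONTROL in every diet group, with no explanation in the labels. The p-values measure the spread between these samples. In whole tissue, fewer cells of a type and less RNA per cell cannot be told apart.

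Polyunsaturated fatty acids of the n-3 and n-6 series are taken from food, since mammals cannot make them anew. The brain stores them in its membranes, docosahexaenoic acid of the n-3 series above all, where they affect the environment of membrane proteins and give rise to signalling lipids. Some also bind nuclear receptors that act on genes of lipid metabolism.

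The ERD arrays had between 17720 and 28117 spots well above background in Cy5, and the STD arrays between 24764 and 29140. The lowest array was ERD 1, which also had the lowest median correlation to the other arrays (0.88). Of 38 markers of neurons, astrocytes, oligodendrocytes, their precursors and microglia, 34 were well above background on all 10 arrays and the other 4 on all but 1 ERD array. Liver markers were well above background on 0 of the 10 arrays for 3 of 4 genes. Of 4 pituitary markers, Gh and Prl were so on 0 arrays, Lhb on 2 ERD and 3 STD arrays and Pomc on all 10.

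Few genes passed the adjusted threshold between the diets, and those that did went both ways. In limma, with Benjamini-Hochberg adjustment over 22557 genes, 49 genes (0.217%) passed an adjusted p of 0.05. Of these, 24 (0.106% of the genes tested) were higher in ERD and 25 (0.111%) were lower. Their folds ran from 1.44 to 6.08 with a median of 1.71, and 11 of the 49 reached 2-fold. The size of a change over all genes was 0.16 at the median, about the size of its standard error (median 0.16). At an unadjusted p under 0.05, 1598 genes (7.08%) were higher and 1704 (7.55%) lower. All 5 ERD arrays lay above all 5 STD arrays in 440 genes (1.95%) and below them in 413 (1.83%). Of the 49 called genes, 48 had separate groups, Acap2 being the exception, but such separation follows from the low p for which they were chosen. The count depended on single arrays: it was 5 without ERD 4, 21 without ERD 2, 170 without ERD 3, and between 9 and 18 without any 1 STD array or without BLD 2 or BLD 4. With slide as a fixed block 1 gene passed, which was not among the 49. Of the called genes with a symbol, only Raly, Eif4g1 and Puf60 passed in all 15 fits that left out 1 array. The others failed in between 1 (Top1mt) and 13 (Ube4a) of these 15 fits, and Srp9, Strap and Trim41 failed in 12.

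All 39 called transcripts with a gene symbol were protein-coding, 19 higher and 20 lower. They were sorted by known function into 8 groups, after their values were seen. Every group of roles held genes of both directions. RNA binding, splicing and mRNA turnover had 4 higher and 2 lower, translation and protein targeting 3 higher and 1 lower, and chromatin, transcription and DNA 3 of each. Ubiquitin ligases had 2 of each. Genes of cytoskeleton, centrosome and cilium numbered 4 higher and 3 lower, those of endomembranes and secretion 1 higher and 6 lower. Cell-surface receptors had 1 higher and 2 lower, and enzymes of peroxide removal and lipids 1 of each. These counts are descriptions, with no test of any group.

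**Figure D1:**
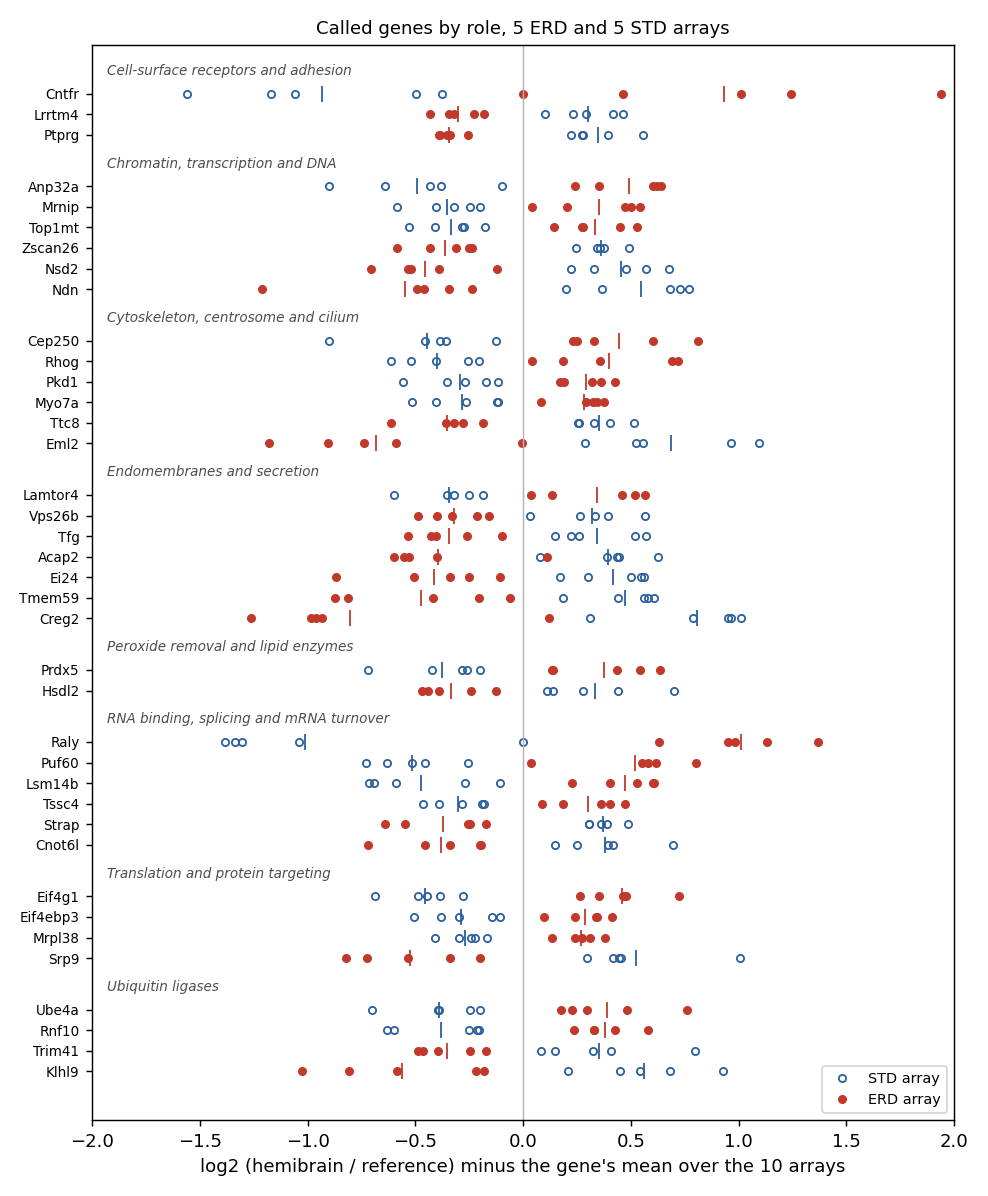
Log2 ratio of hemibrain to reference on each of the 5 ERD arrays (filled) and 5 STD arrays (open) for the called genes named in the text by symbol, less each gene's mean over the 10 arrays and sorted by role. Vertical ticks mark the means of each diet; only in Acap2 do the diets overlap, and each group of roles has genes on either side.

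Proteins that handle RNA supplied the largest increase. Raly, an hnRNP protein with a part in splicing, stood at 0.49, 0.67, 0.91, 0.53 and 0.18 on ERD arrays 1 to 5. On STD arrays 1 to 5 it stood at -0.46, -1.79, -1.76, -1.49 and -1.84, so that STD 1 lay well above the other STD arrays and still below every ERD array. Its change was 2.02 ± 0.22 (SE; adjusted p = 0.0027 in limma). Puf60, a partner of the U2AF factors in recognition of the 3′ splice site, was at 1.28, 1.09, 0.51, 1.05 and 1.03 in ERD. Its STD values were -0.25, -0.04, 0.22, -0.16 and 0.02, and its change was 1.03 ± 0.14. Lsm14b, a protein of stored and repressed mRNA, was higher by 0.95, with 1.50 as its lowest ERD value against 1.17 as its highest STD value. Tssc4, an assembly factor of the spliceosome's U5 particle, was higher by 0.60. In the other direction stood Cnot6l, a deadenylase that shortens the poly(A) tail, which fell by 0.76, and Strap, a WD-repeat partner of the SMN complex, which fell by 0.74.

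The hnRNP family, to which Raly belongs, held more lower than higher members. Of 22 hnRNP and Raly genes tested, 16 were lower in ERD and 6 higher, with a median change of -0.21 against 0.02 for all genes. Among them 4 were lower and 2 higher at an unadjusted p under 0.05 (7.55% and 7.08% of all genes). The array medians of this family, relative to each gene's mean over the 15 arrays, overlapped between the diets. They were -0.58, -0.35, 0.02, -0.14 and -0.06 on ERD arrays 1 to 5 and from -0.08 to 0.11 on STD arrays. Hnrnph2, a regulator of splice site choice, had a change of -1.32 ± 0.33 (adjusted p = 0.108 in limma), with ERD values from -2.01 to -0.21 and STD values from 0.10 to 0.47. Hnrnpa1, the most studied hnRNP, had a change of 0.44 (adjusted p = 0.194). Of 11 SR proteins, which bind exonic enhancers, 9 were lower, with a median of -0.28 and 3 at an unadjusted p under 0.05. Srsf5, 1 of these 3, was at -0.85 ± 0.35 (adjusted p = 0.288). The medians of the SR family were -0.42, -0.22, -0.10, -0.07 and -0.12 on ERD arrays 1 to 5 and 0.10, 0.10, -0.05, -0.01 and 0.15 on STD arrays, relative to each gene's mean over the 15 arrays. They did not overlap between the diets, which held in 3 of 69 families. Of the 11 SR genes, 0 passed the adjusted threshold in limma. The core spliceosome list, with Puf60 in it, was even, 12 of 24 genes higher and a median of 0.01.

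For the translation machinery, Eif4g1, the scaffold on which the cap-binding complex assembles, was at 0.61, 0.72, 0.52, 0.98 and 0.73 in ERD and at -0.02, -0.19, -0.13, -0.23 and -0.43 in STD. Its change of 0.91 ± 0.12 went with a narrow spread in both diets. Eif4ebp3, a repressor that competes with eIF4G for eIF4E, was higher by 0.57, and Mrpl38, of the large mitochondrial ribosomal subunit, by 0.54. Srp9, of the particle that directs nascent chains to the endoplasmic reticulum, fell by 1.05, with 4 STD arrays between -0.61 and -0.45 and the last at 0.10. Initiation factors as a family were even, 28 of 54 higher with a median of 0.02. At an unadjusted p under 0.05, 7 (13%) were higher and 4 (7.41%) lower, against 7.08% and 7.55% of all genes. Of 31 aminoacyl-tRNA synthetases, which charge tRNA with amino acids, 22 were higher, with a median of 0.10 (0.04 from Cy5 alone). At that unadjusted p, 6 synthetases (19.4%) were higher and 0 lower, and 0 passed the adjusted threshold in limma. Their array medians overlapped, from -0.01 to 0.17 in ERD and from -0.17 to 0.03 in STD. Sars, the cytosolic seryl-tRNA synthetase, had a change of 0.69 ± 0.19 (adjusted p = 0.132), with overlapping groups because STD 1 (0.43) lay within the ERD range of 0.22 to 0.87. Qars, for glutamine, stood at 0.34 (adjusted p = 0.14). The mitochondrial ribosomal family of Mrpl38 was even, with 40 of 77 genes higher and a median of 0.01.

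The promoters of the called genes most changed in each direction are shown so that the letters of genes that rose and fell can be compared. RefSeq holds a start for 33 of the 39 genes, and the 4 below are those with a single listed start and the largest changes, Raly and Anp32a higher, Creg2 and Klhl9 lower. Each is the 250 bases before the start in GRCm38.p6, 5′ to 3′ on the gene's strand, with matches to any of 5 motifs on either strand in capitals. The motifs were AGGTCA, known from binding sites of nuclear receptors, and CCAAT, bound by NF-Y, besides GGGCGG, bound by Sp1, and the E-box CACGTG, as well as the TATA box as TATAAA. They lie at chr2:154790860-154791109 on the plus strand, chr9:62341093-62341342 on the plus strand, chr1:39651183-39651432 on the minus strand and chr4:88722509-88722758 on the minus strand, in this order.
Raly: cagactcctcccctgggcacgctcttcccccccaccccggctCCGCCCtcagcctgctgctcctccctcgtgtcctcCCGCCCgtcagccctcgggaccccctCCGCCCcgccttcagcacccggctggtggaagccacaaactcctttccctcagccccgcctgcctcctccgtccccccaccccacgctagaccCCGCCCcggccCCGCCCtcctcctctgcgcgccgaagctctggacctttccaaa
Anp32a: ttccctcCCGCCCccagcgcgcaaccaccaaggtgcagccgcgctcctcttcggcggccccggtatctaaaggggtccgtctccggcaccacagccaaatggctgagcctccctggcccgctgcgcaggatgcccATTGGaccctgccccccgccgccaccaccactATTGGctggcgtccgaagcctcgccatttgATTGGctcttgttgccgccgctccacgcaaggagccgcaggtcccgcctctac
Creg2: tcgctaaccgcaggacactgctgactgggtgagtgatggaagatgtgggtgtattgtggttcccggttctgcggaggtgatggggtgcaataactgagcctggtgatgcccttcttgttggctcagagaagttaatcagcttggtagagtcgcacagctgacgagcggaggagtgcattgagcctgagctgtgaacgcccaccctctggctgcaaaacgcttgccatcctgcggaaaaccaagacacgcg
Klhl9: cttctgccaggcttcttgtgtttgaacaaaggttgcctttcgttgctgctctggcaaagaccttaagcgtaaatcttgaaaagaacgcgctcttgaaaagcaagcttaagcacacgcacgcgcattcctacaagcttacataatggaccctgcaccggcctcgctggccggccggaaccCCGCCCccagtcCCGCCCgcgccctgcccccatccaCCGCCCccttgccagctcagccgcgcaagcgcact
The 4 held 0 matches to AGGTCA, and Creg2 had 0 matches to any of the 5 motifs. AGGTCA was in 1 of 21 promoters of the genes that were higher (4.76%), in 1 of 23 of those that were lower (4.35%) and in 11.1% of the promoters of all genes tested. CCAAT was in 6 of 21 (28.6%) and 2 of 23 (8.7%), against 34.3%. GGGCGG was in 66.7% and 52.2%, against 54.7%. CACGTG was in 9.52% and 0%, against 7.97%, and TATAAA in 4.76% and 4.35%, against 7.11%. These are matches of letters within the 250 bases only.

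In the nucleus, Anp32a, an acidic histone chaperone, was between 1.68 and 2.08 on the ERD arrays and between 0.54 and 1.34 on the STD arrays. It was higher by 0.98 ± 0.18 (SE). Mrnip, a partner of the MRE11 complex at DNA breaks, was higher by 0.70 and Top1mt, the topoisomerase of mitochondrial DNA, by 0.67. Ndn, the imprinted growth suppressor necdin, fell by 1.10; ERD 1 was at 0.67 and the other ERD arrays between 1.39 and 1.64, with the STD arrays from 2.08 to 2.65. Nsd2, a methyltransferase of histone H3, fell by 0.91 and Zscan26, a zinc finger protein, by 0.73. Of 9 genes of the MAGE and necdin family 7 were lower, with a median of -0.40, which was -0.17 without ERD 1. The list of DNA double-strand break repair, which held Mrnip and Nsd2, had 19 of 23 genes higher and a median of 0.12, but a median of 0.01 from Cy5 alone and 0.04 without ERD 1. Zinc finger ZFP genes, 304 in number, had 180 higher and a median of 0.05.

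Ubiquitin ligases were divided equally. Ube4a, which extends ubiquitin chains, was higher by 0.78, with all ERD values at or above 0.68 and all STD values at or below 0.31. Rnf10, a RING finger ligase, was at 1.23, 1.23, 1.14, 1.48 and 1.33 in ERD and at 0.27, 0.69, 0.65, 0.31 and 0.70 in STD, a change of 0.76 ± 0.11. Klhl9, an adaptor of cullin-3 ligases, was at -0.59, -0.81, 0.04, -0.37 and 0.00 in ERD and at 0.76, 0.67, 1.14, 0.43 and 0.90 in STD. It fell by 1.13 ± 0.18. Trim41, a TRIM ligase, fell by 0.71. The RING finger family (67 genes) had a median of 0.02, with 6 higher and 8 lower at an unadjusted p under 0.05. The TRIM family (33 genes) had a median of 0.04, which was -0.01 without ERD 1, with 3 higher (9.09%) and 7 lower (21.2%) at that p against 7.08% and 7.55% of all genes. Of 27 Kelch-like proteins 19 were lower, with a median of -0.16, which was -0.07 without ERD 3 and -0.10 without ERD 5 or STD 5. Proteasome subunits were evenly divided, 23 of 46 higher with a median of 0.00. Yet 6 of them were higher and 1 lower at an unadjusted p under 0.05. Psmc5, an ATPase of the 19S cap, and Psme1, of the PA28 activator, came just short of the threshold, with changes of 0.54 and 0.49 (adjusted p = 0.0543 each in limma). Psma5, of the 20S core, was at 0.93 (adjusted p = 0.122), but its ERD values ran from -0.72 to 1.08. Among E2 and UBE4 enzymes 22 of 33 were lower, Ube2a by the lowest p (-0.74, adjusted p = 0.0657).

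On slides that held both diets, the called genes differed in the same direction as in all arrays. On 3 slides each diet had 1 array, ERD 2 with STD 2, ERD 3 with STD 1, and ERD 5 with STD 4. All 49 genes kept their direction on each. These arrays were among those that chose the genes, so this gives the size within a slide and no further support. Puf60 differed by 1.13, 0.76 and 1.18, Eif4g1 by 0.91, 0.54 and 0.96, and Klhl9 by -1.48, -0.72 and -0.43.

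**Figure D2:**
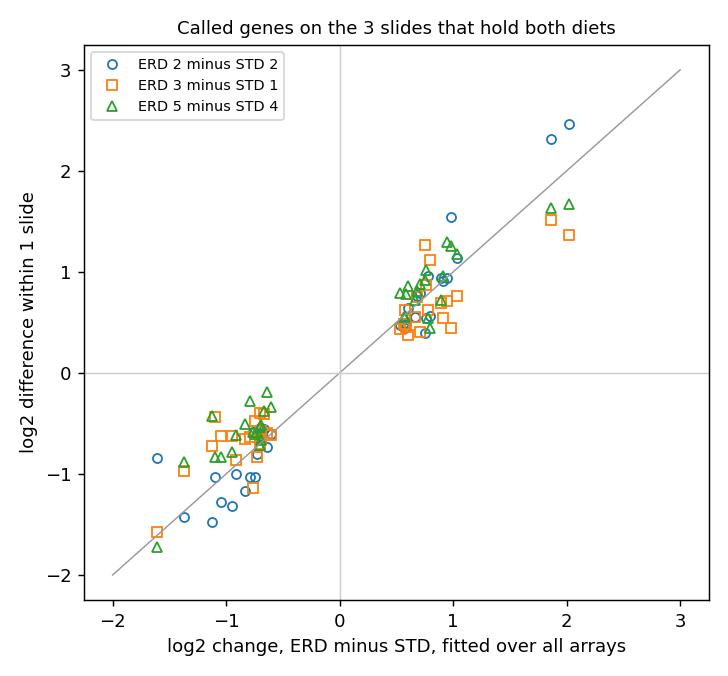
Difference between the ERD and the STD array of the same slide (vertical, log2) against the change fitted over all arrays (horizontal, log2) for the called genes named in the text by symbol, with 1 marker shape per slide and the line of equality. All points lie in the quadrants of equal sign. The decreases are mostly smaller than fitted on the slide of ERD 5 and STD 4 and on that of ERD 3 and STD 1.

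Cytoskeletal genes were also divided. Cep250, a linker of the centrosomes, was at 0.39, 0.95, 0.38, 0.75 and 0.48 in ERD and at -0.31, 0.02, -0.21, -0.24 and -0.75 in STD, a change of 0.89 ± 0.15. Rhog, a GTPase upstream of Rac and actin, was higher by 0.80, Pkd1, the polycystin-1 receptor of the primary cilium, by 0.59, and Myo7a, an unconventional myosin, by 0.57. Eml2, a protein of the microtubule surface, was at 1.53, 1.81, 2.71, 1.97 and 2.12 in ERD and at 3.67, 3.23, 3.81, 3.00 and 3.27 in STD. It fell by 1.37 ± 0.21. Ttc8, a subunit of the ciliary BBSome, fell by 0.70.

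Regulators of actin assembly, a list that holds Rhog, were mostly lower. Of 32 tested, 23 were lower in ERD with a median of -0.26, and 11 were lower and 2 higher at an unadjusted p under 0.05 (7.55% and 7.08% of all genes). The median was the same from Cy5 alone (-0.26), -0.21 without ERD 1 and -0.10 with slide as a block. Cyfip2, of the WAVE complex that switches on branched actin, had ERD values from 2.24 to 3.54 and STD values from 3.67 to 4.13, with a change of -0.89 ± 0.20 (adjusted p = 0.0858 in limma). Arpc1a, of the Arp2/3 complex, stood at -0.56 (adjusted p = 0.1). Of 23 EML and other microtubule-associated genes 18 were lower, with a median of -0.23. Their array medians were only just without overlap, with 0.049 as the highest in ERD and 0.053 as the lowest in STD. Map2, a marker of neuronal dendrites, had a difference of -1.89 ± 0.67 (adjusted p = 0.223 in limma). It was at 0.48 on ERD 1, at 3.24 on ERD 2 and between 4.27 and 5.25 on the other ERD arrays, against 4.93 to 6.22 in STD. CEP proteins had 21 of 33 genes higher and a median of 0.10, which was 0.00 from Cy5 alone. Cep63, needed for centriole duplication, stood at 0.75 (adjusted p = 0.134), with ERD 3 (0.82) within the STD range of 0.16 to 1.15.

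Of the 7 called genes of endomembranes and secretion, 6 fell. Creg2, a glycoprotein that brain cells secrete, was at 0.83, 1.93, 0.55, 0.85 and 0.88 in ERD and at 2.12, 2.78, 2.83, 2.60 and 2.76 in STD. It fell by 1.61 ± 0.29. Tmem59, a protein of Golgi and late endosomes, was at -0.80, -0.86, -0.05, -0.40 and -0.19 in ERD and at 0.57, 0.46, 0.62, 0.59 and 0.20 in STD. It fell by 0.95 ± 0.15. Ei24, a membrane protein of the endoplasmic reticulum linked to autophagy, fell by 0.83, Acap2, which inactivates ARF6, by 0.79, Tfg, of the exit sites of the endoplasmic reticulum, by 0.69, and Vps26b, of the retromer, by 0.64. Only Lamtor4, of the lysosomal Ragulator that recruits mTORC1, was higher, by 0.68.

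Traffic GTPases and the proton pump were mostly lower beside them, without a gene past the threshold. Of 60 RAB genes, which give vesicles their identity, 35 were lower. At an unadjusted p under 0.05, 14 RAB GTPases (23.3%) were lower and 1 (1.67%) higher, against 7.55% and 7.08% of all genes. Their median was -0.10, and -0.07 from Cy5 alone, -0.06 without ERD 3 and -0.06 without STD 5. The exception at the unadjusted level was Rab5c, of early endosomes, with a change of 1.07 ± 0.26 (adjusted p = 0.1 in limma) and ERD values of 1.03 to 1.38. STD 1 was at -1.10 and the other STD arrays between 0.39 and 0.64. Of 22 ARF and ARL genes 15 were lower, with a median of -0.28 (-0.32 from Cy5 alone). Their array medians were -0.25 and -0.44 on ERD 1 and ERD 2. On the other ERD arrays they were 0.01 to 0.02, within the STD range of -0.13 to 0.21. Arl3, a GTPase of cilia, had a change of -0.78 (adjusted p = 0.122 in limma). Of 21 V-ATPase subunits 14 were lower, with a median of -0.20. Leaving out ERD 1 gave a median of -0.11, leaving out ERD 2 one of -0.10 and leaving out STD 2 one of -0.12. Atp6v0b, of its membrane sector, differed in the other direction (0.97, adjusted p = 0.0898), with ERD values from 0.80 to 2.10 and STD values from 0.53 to 0.78.

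At the cell surface, Cntfr, the receptor that binds ciliary neurotrophic factor, was at 2.41, 4.35, 3.42, 3.65 and 2.87 in ERD and at 1.91, 2.03, 1.35, 1.23 and 0.85 in STD. It was higher by 1.86 ± 0.36. Ptprg, a receptor tyrosine phosphatase, fell by 0.69, and Lrrtm4, a synaptic adhesion protein, by 0.60. Lrrtm4 was the dimmest called gene with a symbol and was well above background on 3 ERD and 5 STD arrays.

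Families of neuronal membrane proteins were mostly lower in ERD, and their medians differed between ratio and Cy5 alone and depended on single arrays. Of 70 genes for potassium channels 52 were lower, with a median of -0.21. At an unadjusted p under 0.05, 15 (21.4%) were lower and 0 higher, against 7.55% and 7.08% of all genes. The median of the Potassium channels was -0.03 from Cy5 alone and -0.14 without ERD 4. All 12 GABA-A receptor subunits were lower, with a median of -0.34, which was -0.10 from Cy5 alone, -0.10 without ERD 1, -0.17 without STD 2 and -0.55 without ERD 2. Their array medians were -1.16 and -0.84 on ERD 1 and ERD 3 and 0.30 on ERD 2, while STD arrays ran from -0.36 to 0.44. Of 30 protocadherins 26 were lower with a median of -0.17. Kcnc1, a channel of fast-spiking neurons, had ERD values of 0.12, 1.17, 3.38, 2.01 and 2.90 and STD values of 3.58 to 4.31. Its change of -2.08 ± 0.49 missed the threshold (adjusted p = 0.0895 in limma), and the groups did not overlap.

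Of the markers of brain cells, too, more were lower than higher, and 0 passed the adjusted threshold in limma. Of 9 neuron markers 7 were lower, with a median of -0.26 (-0.12 from Cy5 alone), and their array medians ran from -0.26 to 0.07 in ERD and from -0.09 to 0.35 in STD. Of 8 oligodendrocyte markers 7 were lower (median -0.25, and -0.02 from Cy5 alone). Astrocyte markers had a median of -0.13 and microglia markers one of -0.17, each with 6 of 8 lower. Without ERD 1 the median was -0.11 for neuron, -0.16 for oligodendrocyte, -0.06 for microglia and -0.17 for astrocyte markers. Of 5 markers of oligodendrocyte precursors 3 were lower, with a median of -0.13, which was 0.03 without ERD 1. The largest increases among these markers were those of Snap25, Gfap, Aqp4 and Cspg4. Cspg4, a precursor marker, had a change of 0.72 (adjusted p = 0.0847 in limma) and Aqp4, an astrocyte marker, one of 0.76 (adjusted p = 0.349). Snap25, a synaptic fusion protein, had a change of 1.38 (adjusted p = 0.259 in limma) and Gfap, the filament of astrocytes, one of 1.04 (adjusted p = 0.121). The part of cell composition in the family differences was not tested.

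**Figure D3:**
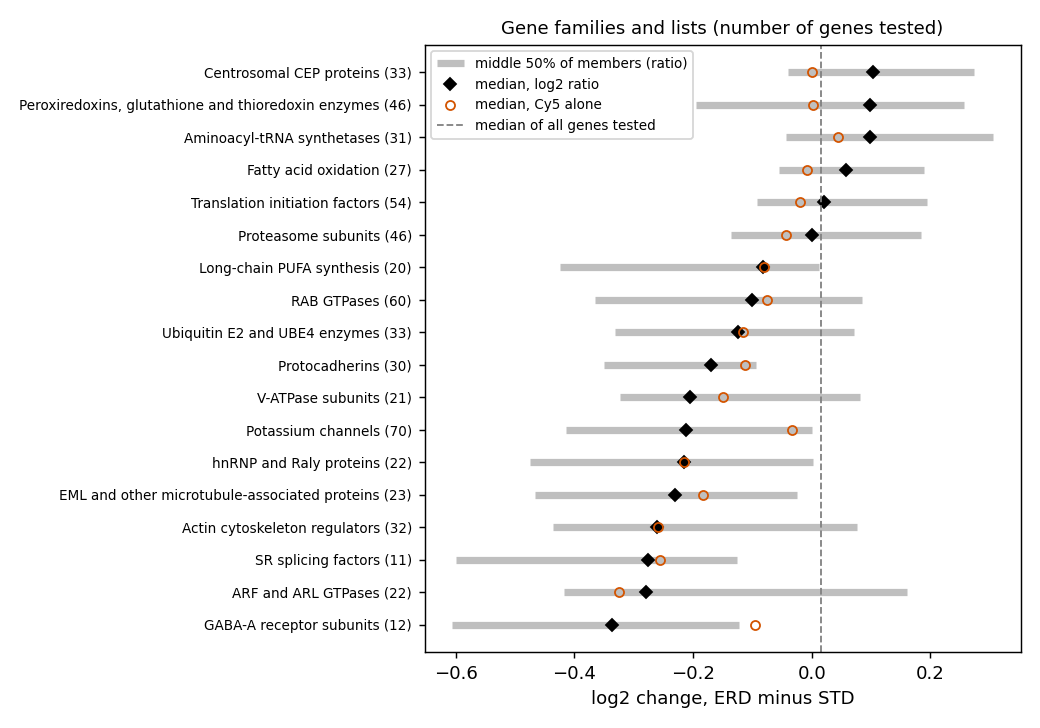
Median log2 change between ERD and STD (diamonds) and its middle 50% (grey bars) for 18 gene families and lists, with the median from Cy5 alone (open circles) and that of all genes (dashed line). Families of actin, ARF, SR and hnRNP genes lie to the left in both measures, whereas GABA-A receptor subunits and potassium channels do so mainly in the ratio.

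The difference between ratio and Cy5 alone, which also differ in normalization, was general. Genes at least 2-fold higher in hemibrain than in the reference (3935 genes) had a median change of -0.10, and 12.9% of them were lower and 7.55% higher at an unadjusted p under 0.05. From Cy5 alone their median was 0.02. Genes at least 2-fold higher in the reference (3048) had a median of 0.08, and those within 2-fold (15574) one of 0.02. The SD of the log2 ratios across genes was 1.21 on ERD 1, 1.22 on ERD 3 and 1.54 on ERD 2, and between 1.30 and 1.41 on the STD arrays. Hence the ERD group held both the narrowest and the widest ratios of the 15 arrays. The SD between replicates was larger in ERD than in STD for 71.6% of all genes and for 29 of the 49 called ones. Fitted on its own in limma, the reference channel had 0 called genes and 449 (1.99%) at an unadjusted p under 0.05. All 49 called genes had the same direction in Cy5 alone, where 33 of them passed.

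**Figure D4:**
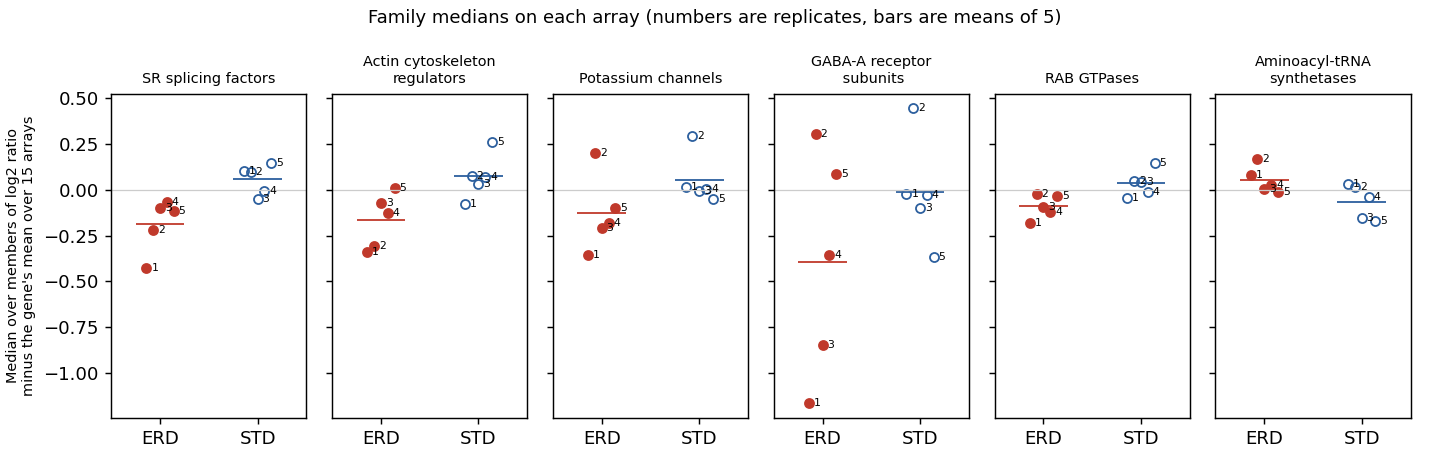
Median over the members of 6 families on each ERD (filled) and STD (open) array, as log2 ratio less the gene's mean over 15 arrays; numbers are replicates and bars the means of 5. The SR medians are separate between the diets, and the GABA-A receptor medians spread from -1.16 to 0.30 within ERD.

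The lists of enzymes that build or oxidise long-chain fatty acids held 0 of the 49 genes called in limma, a count that lists of this size would also have at the 0.217% of all genes. Of 20 genes of long-chain fatty acid synthesis 14 were lower, with a median of -0.08, and 5 (25%) were lower and 0 higher at an unadjusted p under 0.05, against 7.55% and 7.08% of all genes. The median was -0.13 without ERD 1. The array medians of the list were -0.08, -0.19, -0.08, -0.13 and -0.08 on ERD arrays and between -0.01 and 0.18 on STD arrays, without overlap. Such separation held in 3 of 69 families, and no such count was made for the lists. The 5 genes were Scd2 (-0.53), Elovl4 (-1.14), Hacd1 (-0.38), Fads1 (-0.63) and Scd1 (-0.90), with adjusted p from 0.142 to 0.296 in limma. Fads1 and Scd1 are named after their values were seen. Scd2, the main stearoyl desaturase of brain, had ERD values of 0.65, -0.09, 0.13, -0.06 and 0.45 and STD values of 0.57 to 0.93. Of 27 genes of fatty acid oxidation 18 were higher, with a median of 0.06 (-0.01 from Cy5 alone). Hadha, of the mitochondrial trifunctional protein, was between -0.64 and -0.35 in ERD and between -1.07 and -0.83 in STD, a change of 0.43 ± 0.09 (adjusted p = 0.0753). Prdx5, which removes peroxides in mitochondria and peroxisomes, passed the threshold. It was at 0.75, 0.75, 1.16, 1.05 and 1.25 in ERD and at -0.11, 0.35, 0.42, 0.33 and 0.19 in STD, higher by 0.75 ± 0.14. Its family of 46 peroxiredoxin, glutathione and thioredoxin genes was mixed, with 9 higher and 6 lower at an unadjusted p under 0.05. Hsdl2, a peroxisomal dehydrogenase-like protein, fell by 0.67.

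Called genes were bright. With the genes split into 4 equal classes by mean Cy5 level, 1, 4, 18 and 26 were called from the dimmest class to the brightest, 0.0177%, 0.0709%, 0.319% and 0.461% of each class. The brightest class held 15 of the 24 increases and 11 of the 25 decreases. At an unadjusted p under 0.05, 98 genes were higher and 238 lower in the dimmest class, 414 and 268 in the second, 567 and 526 in the third, and 519 and 672 in the brightest. Median changes were 0.00, 0.07, 0.02 and -0.04 in this order, and median standard errors rose from 0.12 to 0.18. The dim classes thus had few calls, and their standard errors were the smallest. In the dimmest class 2.34% of genes were well above background on all 15 arrays, against 99.8% in the brightest, and the median size of a change was 0.10 against 0.21. The part of the normexp offset in the small changes and small standard errors of dim genes was not tested. Lrrtm4 was the only call of the dimmest class. Its change ran from -2.29 to -0.33 over the alternatives other than those that left out 1 array. Genes of the dimmest class were well above background on 2.59 ERD and 3.22 STD arrays on average. Some could thus pass the filter mainly through the diet where they were higher. The filter's part in the 98 increases and 238 decreases of this class was not tested.

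**Figure D5:**
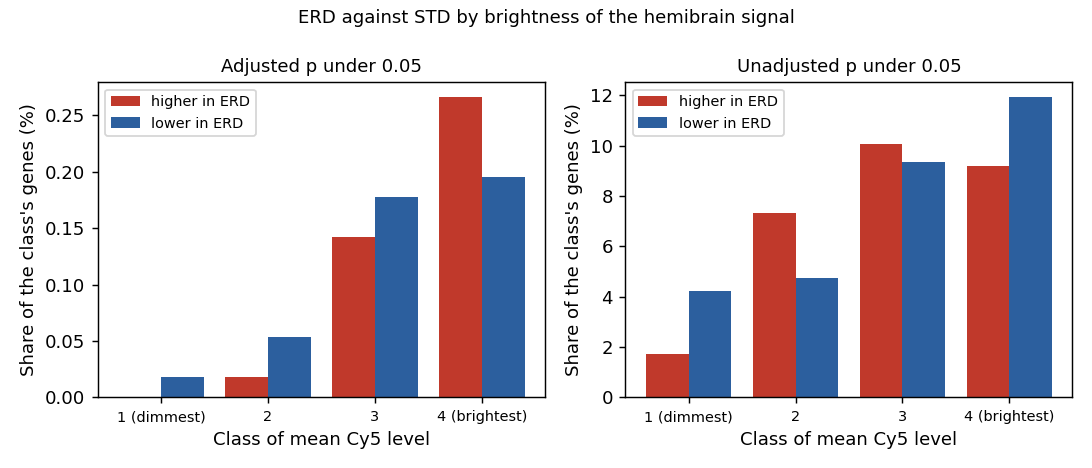
Share of genes in each of 4 equal classes of mean Cy5 level that were higher (red) or lower (blue) in ERD, at an adjusted p under 0.05 (left) and an unadjusted p under 0.05 (right), in percent. The share of calls grows from 0.0177% in the dimmest to 0.461% in the brightest class. The right panel shows decreases ahead of increases in the dimmest and brightest classes. Genes of the dimmest class were detected on fewer ERD than STD arrays on average, and the filter's part in their counts was not tested.

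Probes that found no symbol through RefSeq supplied 10 of the 49. The lack of a match does not make a transcript unknown, so known genes can be among them. Of 13382 protein-coding genes 39 were called (0.291%), of 4717 accessions without a symbol 8 (0.17%), of 4077 probes for unannotated genomic intervals 2 (0.0491%) and of 381 non-coding or other symbols 0. The interval probes were dimmer (median Cy5 level 6.90) than the protein-coding genes (8.59). The interval probe that was lower, A_30_P01032963 at chr12:110845020-110850870 of mm9, fell by 1.73 ± 0.32. It was well above background on 1 of 5 ERD and all 5 STD arrays. The other, A_30_P01018056 at chr2:168804720-168854970 of mm9, was higher by 0.56. The largest decrease among the called, A_66_P101646 (-2.61), listed under an Ensembl transcript, had an opposite difference of 0.58 in the reference channel.

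Detection differed between the diets for few genes. Of 48997 genes, each by its brightest probe, 4 were well above background on all ERD and 0 STD arrays and 40 on all STD and 0 ERD arrays. Slc16a5, a monocarboxylate transporter, had mean Cy5 levels of 7.69 in ERD and 6.59 in STD and a change of 1.38 in the log2 ratio (adjusted p = 0.355 in limma). Among the 13 with a symbol detected only in STD was Idh1, the cytosolic isocitrate dehydrogenase. Its mean Cy5 levels were 6.56 in ERD and 6.95 in STD, and its change in the log2 ratio was -0.27 (adjusted p = 0.316 in limma). More genes were detected on more STD than ERD arrays (8891) than the reverse (3729), beside the lower spot count of ERD 1. The part of that array in detection was not tested.

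Second probes of a gene were often discordant. Of the 39 symbols, 29 rested on 1 measured probe. The other 10 had 13 further probes, of which 7 had the direction of the called probe. Of these, 2 had at least 0.5 of its size, those of Eml2 (-1.70) and Tmem59 (-0.64). For Ptprg they stood at -0.07 and -0.14, for Lrrtm4 at -0.07, for Srp9 at -0.19 and for Strap at -0.16. All were below the size of the called probe, and that of Strap had a Cy5 level of 8.11. Opposite in direction were those of Lsm14b (-0.31), Anp32a (-0.04, at a Cy5 level of 8.23) and Cnot6l (0.01), and those of Nsd2 (0.14, 0.12 and 0.02). Further probes of Lrrtm4, Ptprg, Nsd2, Cnot6l and Lsm14b were dim, with Cy5 levels of 6.29 to 6.98.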

How the data were processed

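The labels, per the submitters, give 1 diet to each hemibrain sample. The deposited scanner files hold spot intensities of both channels as median pixel values of spot and background, and per the file headers the scanner software was Feature Extraction 11.5.1.1, whereas the submitters' processing notes name 10.7. The authors' value table gives log10 ratios of Cy5 over Cy3 that equal those in the scanner files. Hemibrain was in Cy5 on every array, so dye effects were not estimated.

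Here intensities went through normexp background correction with an offset of 50, then loess normalization array by array with control spots at weight 0, in limma 3.58.1 (R 4.3.3). Spots flagged as outliers (0.57%) were dropped. Kept were probes that the software rated well above background in Cy5 on 5 or more arrays and that had 8 or more values. Symbols came from RefSeq (GRCm38.p6) through accessions, for 27656 of 55681 probes. A symbol was represented by its probe of highest mean Cy5 level, giving 22557 genes. A limma fit over 15 arrays (12 residual degrees of freedom) gave ERD against STD. Cy5 alone means the background-corrected Cy5 intensity after quantile normalization between arrays, and the reference channel alone was treated in the same way. The ratios were normalized within arrays only, so ratio and Cy5 alone differ in normalization as well as in channel. Cy5 levels and brightness classes come from the values after loess. Named are called genes with a symbol, some of the called probes without one, and the 10 genes next past the threshold where a family holds them. Also named are up to 3 members of lowest p of each family or list described, and genes detected on all arrays of 1 diet and 0 of the other. The families, lists and members were chosen with earlier results of these data known. A few genes that this rule names are not reported here. The fit was tested on simulated data. Alternatives covered normalization, filters, blocks and single arrays. The number of arrays limits the precision. Figures were drawn with matplotlib 3.10.9.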

Additional observations from a re-analysis of the deposited data

Results flagged for a closer look

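Single arrays that stood apart from the other 4 of their diet, by a gap to the nearest array of more than 0.71 of the range, were found in 12 of 156 groups of 5 arrays (7.69%), where chance gives about 1 in 20. STD 1 was such an array 3 times. Raly was at -0.46 on STD 1 and from -1.84 to -1.49 on the other STD arrays. The probe A_66_P101646 was at 0.069 on STD 1 against 1.80 to 2.09. Rab5c was at -1.10 on STD 1 against 0.39 to 0.64. Among the other genes that were lower in ERD, Creg2 was at 1.93 on ERD 2 against 0.55 to 0.88, Acap2 at -0.55 on ERD 5 against -1.26 to -1.06, and Ndn at 0.67 on ERD 1 against 1.39 to 1.64. Srp9 was at 0.10 on STD 5 against -0.61 to -0.45, and the interval probe A_30_P01032963 at 0.48 on ERD 3 against 0.08 to 0.14. Myo7a was at 0.12 on ERD 3 against 0.33 to 0.42. Gm1987 was at 0.33 on STD 3 against 3.24 to 4.33, which put that array inside the ERD range, and its difference of -2.63 missed the threshold (adjusted p = 0.0652 in limma). Tapbp was at -1.92 on STD 4 against -2.05 to -2.01. The median of the potassium channels was at 0.29 on STD 2 against -0.05 to 0.02.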

How the results depend on the processing

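The direction of every called gene was kept under every alternative run that measured it (46 of 46 measured with genes well above background on all arrays). The genes were chosen on these same arrays, so their kept direction gives no further support. The number of calls was not kept. Instead of 49 it ranged from 5 to 170 when single arrays were left out (lowest without ERD 4, highest without ERD 3). It was 22 from the ERD and STD arrays alone, 32 with genes well above background on all arrays, 1 with slide as a fixed block, 101 with slide as a random block and 11 with scan day as a fixed block. It was 126 with array weights and 92 with the number of detected spots as covariate. Without the 3 least correlated arrays (ERD 1, BLD 3 and ERD 4), an alternative added after seeing the data, limma gave 0 calls, with 2124 genes at an unadjusted p under 0.05. Scan day 2 held 1 ERD and 0 STD arrays. The split of calls was 24 higher and 25 lower; it was 18 and 28 with a normexp offset of 1, 54 and 38 with detected spots as covariate, 7 and 14 without ERD 2, and 19 and 43 without ERD 5. In the dimmest class 0.0177% became 0.0355% with classes by both channels, 0.0443% with 10 classes and 0% from Cy5 alone. The reference channel gave 1 call from the ERD and STD arrays alone. By replicate number, no paired analysis was possible because the numbers were given in accession order and pair no animals; arrays that share a slide are compared in the fixed block above. The cause of these differences was not tested.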
